A study of Mus musculus with 4 samples.

Results

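The BMP, TGF-beta and activin signalling genes of the embryonic mouse stomach were described from 41 genes, taken as the rows of the deposited table whose gene name is one of the listed members, out of 51098 genes in all. Each of the 41 names matched 1 row. They comprise 6 BMP ligands, 5 TGF-beta and activin ligands, 10 receptors, 6 antagonists, 8 Smads and 6 target genes. RNA was measured by sequencing in stomachs taken at E15.5, a stage counted in embryonic days, and the stated question was how stomachs without Fgf9, a gene for a secreted fibroblast growth factor, differ from heterozygous ones. The Fgf9_null group (2 samples) has the genotype Fgf9LacZ/LacZ and the treatment entry Fgf9KO. The Fgf9_het group (2 samples) has the genotype Fgf9LacZ/+ and the treatment entry control, although its titles read WT. By the genotype entries, and against those titles, every sample carries at least 1 copy of the Fgf9LacZ allele and no group is wild type. The sources used here give neither the strain nor the number of embryos behind a sample.

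BMPs, TGF-betas and activins are secreted dimeric ligands that bring together type I and type II receptor kinases. The type I receptor then phosphorylates receptor-regulated Smads: Smad1, Smad5 and Smad9 for BMPs, and Smad2 and Smad3 for TGF-betas and activins. These join Smad4 and act on target genes in the nucleus, among them the Id genes and the genes for the inhibitory Smads, Smad6 and Smad7. Secreted antagonists such as noggin, gremlin and follistatin bind the ligands and keep them from their receptors. In the developing gut, BMP signals pass between epithelium and mesenchyme and take part in patterning the stomach and forming its muscle layers.

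Apart from a small number of genes, mainly of structured RNAs, the 4 columns hold 2 libraries, each present under both genotype labels. Over the 41 members, columns with the same replicate number differed by at most 4.04 counts for replicate 2 and 4 counts for replicate 3. Chi-square over the members, divided by its degrees of freedom, was 0.0953 between the replicate 2 columns and 0.0954 between the replicate 3 columns, far below what sampling noise alone gives. It was 3.17 to 3.47 between columns of different number. Over all genes the same quantity was 4.46 and 4.64 between same-numbered columns, with differences of up to 297339 counts, and 96.8% (replicate 2) and 95.6% (replicate 3) of the summed difference lay in structured and ribosomal RNA genes, nearly all of it in Rn7s1, a 7S RNA gene. Of 21487 and 21788 genes, 17 and 22 differed by over 10% between the same-numbered columns. Without the structured and ribosomal RNA genes the quantity was 0.0768 and 0.0804 between same-numbered columns and 5.35 to 5.50 between columns of different number. Fgf9 itself had 133 counts in replicate 2 and 131 counts in replicate 3 under both labels, and which parts of the gene the LacZ allele keeps is not given in the sources used here. Same-numbered columns were therefore averaged and counted as 1 sample, called library 2 and library 3, and the genotype of either library is not resolved. The table also has 2 columns of values with no name in the header, so whether each name stands over its own values is not known, and a column value is given below under the name it carries. The columns totalled 19269851 to 22713416 counts, so that 1 count was worth 0.0440 to 0.0519 CPM (counts scaled to a column total of 1000000). Markers of the labelled tissue were present: all 5 stomach mesenchyme markers and all 10 gastric epithelium markers reached 1 CPM in both libraries, with Barx1 at 133 ± 4.73 and Cym at 4692 ± 269 CPM (SD, n = 2 libraries). Squamous forestomach markers summed to 643 CPM in library 2 and 347 CPM in library 3. Liver markers summed to 34.7 and 57.2 CPM and erythroid markers to 803 and 1004 CPM.

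Promoter sequences are shown for 6 members on which the later comparisons turn: the BMP ligand with the highest length-scaled level (Bmp4), the antagonist with the highest (Grem1), 3 members that differed by over 1.2-fold between the libraries (Bmp5, Inhbb and Msx1), and Id4, the Id gene that was lower in library 3. Each is the 250 bases before the RefSeq start site, 5′ to 3′ on the strand of the gene, from the GRCm38.p6 table. Capitals mark the motif GGCGCC, a GC-rich Smad-binding sequence, and the motif GTCTG, which holds the Smad-binding core, searched on both strands (CAGAC on the other). GGCGCC reads the same on both strands, and neither motif holds the other.
Bmp4: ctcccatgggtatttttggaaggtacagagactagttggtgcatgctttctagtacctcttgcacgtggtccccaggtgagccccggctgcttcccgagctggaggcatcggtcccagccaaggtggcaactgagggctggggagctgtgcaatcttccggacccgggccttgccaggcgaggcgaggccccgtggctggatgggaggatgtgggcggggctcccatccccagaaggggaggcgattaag
Bmp5: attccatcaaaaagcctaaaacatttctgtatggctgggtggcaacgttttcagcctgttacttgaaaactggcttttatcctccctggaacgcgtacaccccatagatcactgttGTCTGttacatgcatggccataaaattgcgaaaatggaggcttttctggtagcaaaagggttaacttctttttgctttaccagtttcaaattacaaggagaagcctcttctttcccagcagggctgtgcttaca
Grem1: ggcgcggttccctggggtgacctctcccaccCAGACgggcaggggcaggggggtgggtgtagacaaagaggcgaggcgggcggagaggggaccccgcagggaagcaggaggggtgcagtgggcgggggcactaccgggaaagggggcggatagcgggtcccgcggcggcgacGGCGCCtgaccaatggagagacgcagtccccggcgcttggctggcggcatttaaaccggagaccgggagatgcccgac
Inhbb: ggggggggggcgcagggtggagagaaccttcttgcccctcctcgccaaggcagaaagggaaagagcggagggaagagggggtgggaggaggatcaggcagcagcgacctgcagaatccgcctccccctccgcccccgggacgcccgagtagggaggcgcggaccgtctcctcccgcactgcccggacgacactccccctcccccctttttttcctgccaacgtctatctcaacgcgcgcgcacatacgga
Id4: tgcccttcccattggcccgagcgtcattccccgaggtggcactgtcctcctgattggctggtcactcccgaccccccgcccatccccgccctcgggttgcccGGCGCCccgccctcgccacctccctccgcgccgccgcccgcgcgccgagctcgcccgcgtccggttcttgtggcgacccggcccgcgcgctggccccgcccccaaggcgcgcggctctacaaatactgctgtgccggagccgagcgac
Msx1: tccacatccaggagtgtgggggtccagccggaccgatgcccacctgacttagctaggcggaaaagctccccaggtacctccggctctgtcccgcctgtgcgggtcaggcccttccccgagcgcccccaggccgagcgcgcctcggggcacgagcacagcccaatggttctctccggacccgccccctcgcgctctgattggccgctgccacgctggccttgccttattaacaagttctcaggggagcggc
These windows lie at chr14:46390670-46390919 (minus strand) for Bmp4, chr9:75775115-75775364 (plus) for Bmp5, chr2:113758649-113758898 (minus) for Grem1, chr1:119422249-119422498 (minus) for Inhbb, chr13:48260866-48261115 (plus) for Id4 and chr5:37824586-37824835 (minus) for Msx1. In GENCODE M21 they hold no exonic base, except 1 base in the Bmp5 window. The GC content was 42.8% in the Bmp5 window and 63.2% to 75.6% in the other 5.

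RefSeq windows were matched for 28 of the 41 members, as 33 windows, since some genes have several. Of these, 24 were followed by the start of a GENCODE M21 transcript, and 5 (of Acvr1, Bmp6, Bmpr2, Id3 and Msx2) lay wholly within exons, so that not every window is sequence upstream of a gene by both annotations. GGCGCC occurred in 9 of the 33 windows (27.3%), those of Bmpr1a, Bmpr2, Chrd, Grem1, Id2, Id4, Smad5, Smad9 and Tgfbr1, against 9.59% of all 32851 windows. The member windows were also richer in GC, with a median of 66.8% against 52.4% over all windows, and the part of GC content in the count of this GC-only motif was not tested. GTCTG occurred in 12 of the 33 windows (36.4%), against 42.2% of all windows. A longer Smad-binding sequence, GTCTAGAC, which reads the same on both strands and holds neither of the others, occurred in 0 of the 33 windows, against 0.167% of all windows. In the 24 windows with a GENCODE start, GGCGCC occurred in 7 and GTCTG in 8. Of the windows shown, Grem1 had 1 match to each motif, Id4 had 1 match to GGCGCC, Bmp5 had 1 match to GTCTG, and Bmp4, Inhbb and Msx1 had none. A match describes these letters only and was not tested as a binding site.

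The comparison of the genotype labels found no member apart. edgeR's quasi-likelihood test called 0 of 41 members and 0 of 19987 genes (0%) at an adjusted p under 0.05. No member and 4 genes of the whole table had an unadjusted p under 0.05, and DESeq2 called 3 genes and limma-voom 0, none of them a member. The largest fold among the members was that of Grem1, which encodes the BMP antagonist gremlin, with a log2 fold of Fgf9_null over Fgf9_het of -0.00953 (SE 0.0317, edgeR adjusted p = 1). Its counts were 486 and 547 in Fgf9_null and 490 and 550 in Fgf9_het, in the order of replicates 2 and 3, so that the groups overlapped. The median absolute log2 fold over the members was 0.000342. In the edgeR fit with a replicate block, 6 genes (0.0300%) and again 0 members were called. That count depends on edgeR's Poisson bound, which keeps a gene's variance from falling below that of counting: with the block and without the bound, 1232 genes (6.16%) and 2 of 41 members were called. These were Grem1 (log2 fold -0.00944, SE 0.000983, edgeR adjusted p = 3.96e-20) and Inhbb (log2 fold -0.00535, SE 0.00103, edgeR adjusted p = 6.94e-06), differences of at most 4.04 counts between columns of 1 library. Because each library stands under both labels, these counts measure no effect of Fgf9 on the pathway.

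**Figure D1:**
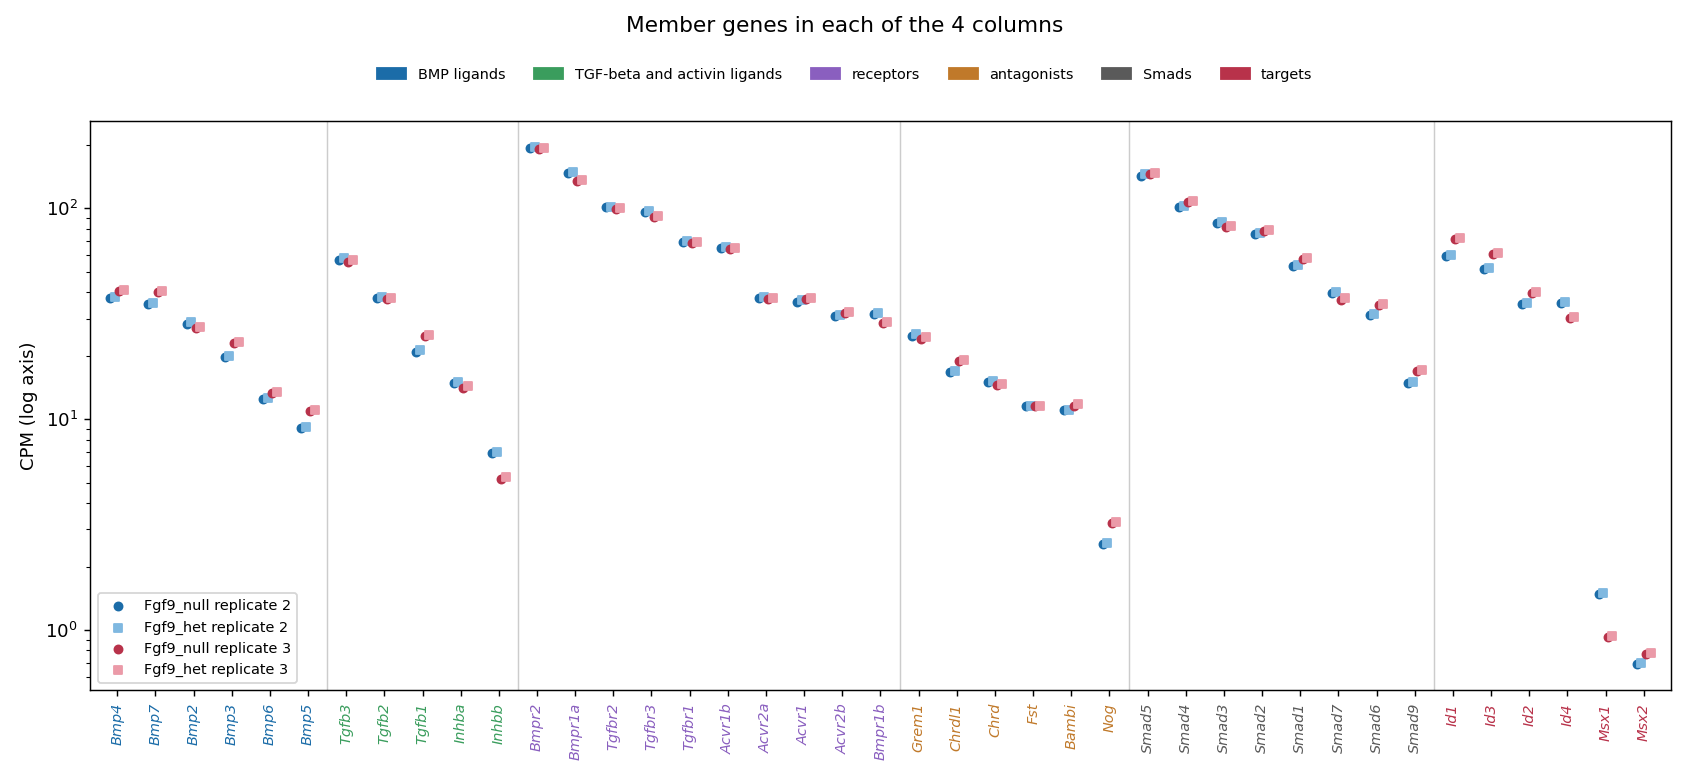
CPM (log axis) of each member gene in the 4 columns, grouped by role and ordered by mean CPM within a role; circles are Fgf9_null columns and squares are Fgf9_het columns, blue for replicate 2 and red for replicate 3. Same-coloured symbols of a gene lie almost on each other, from Bmpr2 at 191 to 196 CPM down to Msx2 at 0.686 to 0.780 CPM.

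Nearly every member was measurable. Of the 41 members, 39 (95.1%) reached 1 CPM in both libraries, against 32.7% of all genes in the table. At 10 CPM there were 36 (87.8%), against 20.9% of all genes. The exceptions at 1 CPM were Msx1 and Msx2. To compare genes, counts were divided by the length of the longest protein-coding transcript and scaled to a sum of 1000000 in each column, which gives TPM. The members together made up 991 TPM in library 2 and 1034 TPM in library 3. The median member stood at 20.1 TPM, against 13.7 TPM over the genes with a mean of at least 1 CPM. In these bulk samples, fewer cells of a type and less RNA per cell cannot be told apart.

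**Figure D2:**
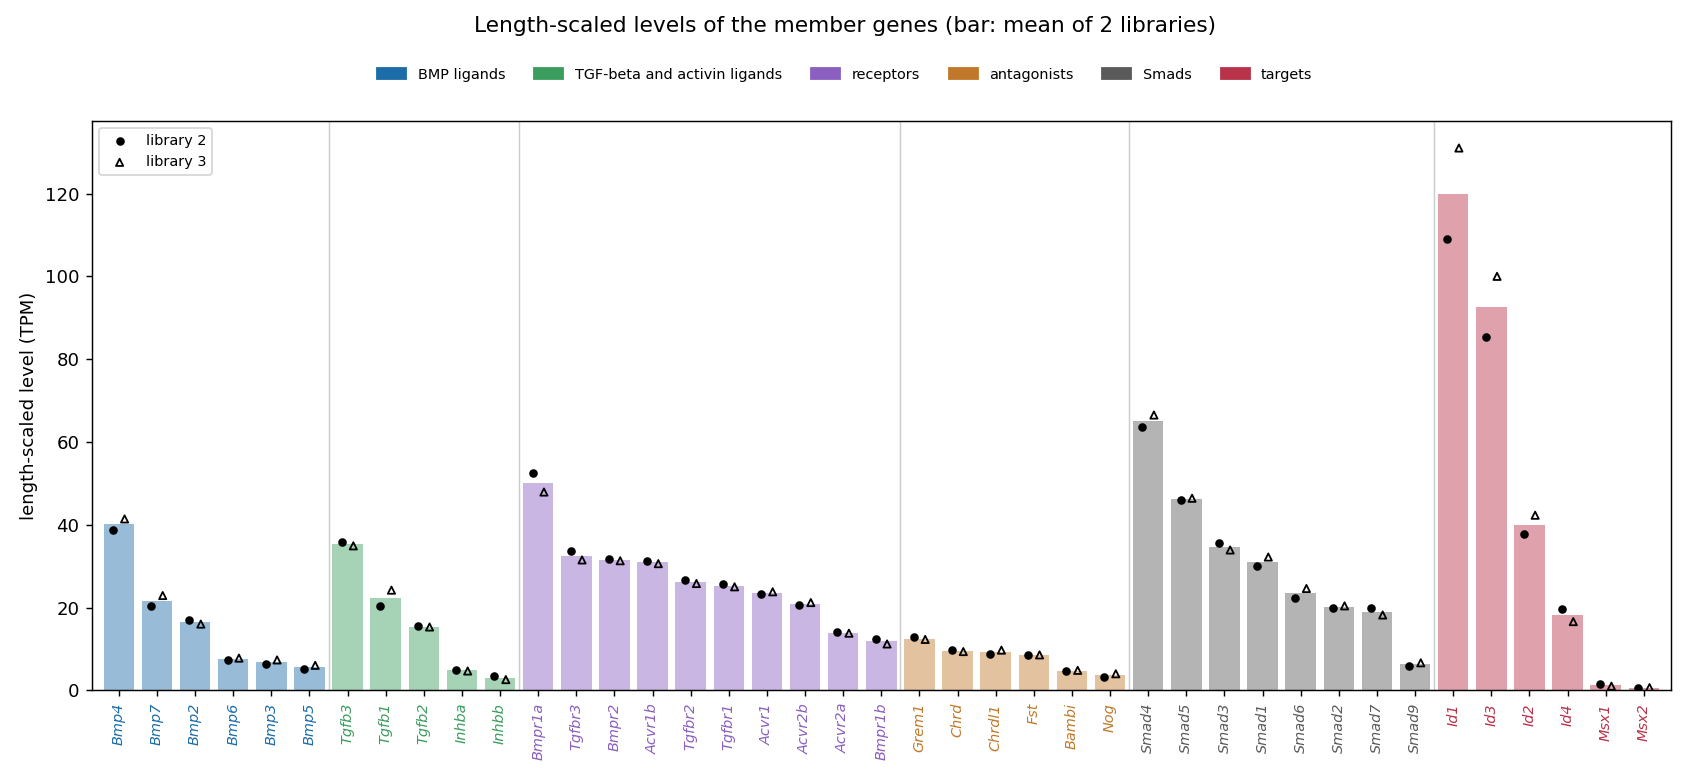
Length-scaled level (TPM, linear axis from 0) of the member genes by role; bars are the mean of 2 libraries, filled circles library 2 and open triangles library 3. Id1 and Id3 stand highest at 120 and 92.6 TPM, and Msx2 lowest at 0.628 TPM.

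Among the BMP ligands, Bmp4 was the most abundant and Bmp5 the least. Bmp4, a ligand made by gut mesenchyme (ENSMUSG00000021835, GRCm38 chromosome 14, 46383520 to 46390669, minus strand), had 37.5 and 40.5 CPM in Fgf9_null replicates 2 and 3 and 38.1 and 41.1 CPM in the Fgf9_het replicates. Its length-scaled level was 40.1 ± 1.97 TPM, which was 40.8% of the summed TPM of the 6 ligands in each library. Bmp7 followed at 21.7 ± 1.79 TPM and Bmp2 at 16.5 ± 0.653 TPM. The level of Bmp4 was 2.28 times that of Bmp2 in library 2 and 2.58 times in library 3. Bmp6 had 7.56 ± 0.322 TPM and Bmp3, which codes for a ligand known to antagonise other BMPs, had 6.84 ± 0.714 TPM, so that this pair differed by about the SD of Bmp3. Bmp5 (chromosome 9, 75775364 to 75900310, plus strand) had 9.06 and 10.9 CPM in Fgf9_null and 9.19 and 11.1 CPM in Fgf9_het, or 5.54 ± 0.709 TPM. The order of the 6 ligands was the same with either other measure of gene length.

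Tgfb3 led the TGF-beta and activin ligands. Tgfb3 (chromosome 12, 86056745 to 86079041, minus strand) had 57.0 and 55.9 CPM in Fgf9_null and 57.9 and 56.6 CPM in Fgf9_het, or 35.4 ± 0.685 TPM. The columns lay close together, and the genotype labels overlapped. Tgfb1 stood at 22.3 ± 2.64 TPM and Tgfb2 at 15.4 ± 0.200 TPM, and this pair changed places when the union of the exons was taken as gene length. The activin subunit genes were lower, with Inhba (activin beta A) at 4.80 ± 0.173 TPM and Inhbb (activin beta B) at 3.02 ± 0.611 TPM. Inhbb (chromosome 1, 119415465 to 119422248, minus strand) had 6.91 and 5.20 CPM in Fgf9_null and 7.01 and 5.31 CPM in Fgf9_het. Both replicate 2 columns were above both replicate 3 columns, and the genotype labels overlapped.

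All 10 receptor genes exceeded 10 CPM in both libraries, and their levels varied little between the libraries. Bmpr1a, a type I receptor for BMPs (chromosome 14, 34410734 to 34503341, minus strand), had 147 and 135 CPM in Fgf9_null and 149 and 137 CPM in Fgf9_het. At 50.2 ± 3.34 TPM it led the receptors with each of the 3 length measures. Bmpr1b, the related type I receptor (chromosome 3, 141837136 to 142169425, minus strand), had 31.5 and 28.5 CPM in Fgf9_null and 31.9 and 28.9 CPM in Fgf9_het. Bmpr1a was 4.21 times as high as Bmpr1b per length in library 2 and 4.26 times in library 3, and 11.0 times with the median transcript as length. Acvr1 (ALK2, a type I receptor for BMPs and activins) had 23.6 ± 0.389 TPM.

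Of the type I receptors of the activin and TGF-beta branch, Acvr1b stood at 30.9 ± 0.408 TPM and Tgfbr1 at 25.3 ± 0.440 TPM. Tgfbr2, the type II receptor that binds TGF-beta, was close to its partner Tgfbr1 at 26.2 ± 0.540 TPM, with a ratio of 1.04 in library 2 and 1.03 in library 3. With the median transcript as length that ratio was 0.590, so that the order of the pair depends on the length used. Bmpr2, the BMP type II receptor, had the highest CPM of all members at 193 ± 1.34, yet 31.5 ± 0.369 TPM, because its longest transcript has 12899 bases. The activin type II receptor genes Acvr2b and Acvr2a had 20.9 ± 0.381 and 13.9 ± 0.170 TPM. Tgfbr3 encodes betaglycan, a co-receptor that presents TGF-beta and binds inhibin, and had 32.5 ± 1.46 TPM. The 5 type I receptor genes summed to 145 and 139 TPM and the 4 type II receptor genes to 93.1 and 92.1 TPM in libraries 2 and 3.

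Antagonists were lower as a group, with a median of 8.88 TPM against 12.0 TPM for the BMP ligands and 25.7 TPM for the receptors. The 6 genes summed to 47.6 TPM in library 2 and 48.8 TPM in library 3, against 94.7 and 102 TPM for the 6 BMP ligands. Grem1 (chromosome 2, 113746164 to 113758646, minus strand) had 24.9 and 24.1 CPM in Fgf9_null and 25.4 and 24.5 CPM in Fgf9_het, or 12.5 ± 0.359 TPM. Chrd, which encodes chordin, and its relative Chrdl1 stood at 9.55 ± 0.263 and 9.18 ± 0.742 TPM, a difference within 1 SD. Fst, which encodes the activin-binding follistatin, had 8.58 ± 0.0304 TPM, 1.75 and 1.83 times the level of Inhba in libraries 2 and 3, and 1.10 times with the union of exons as length. Fst stood above Grem1 when the median transcript was taken as length. Bambi, which encodes a receptor-like protein without a kinase that dampens signalling, had 4.71 ± 0.173 TPM. Nog, the noggin gene (chromosome 11, 89300638 to 89302332, minus strand), was the lowest, with 50 counts in both replicate 2 columns and 73 counts in both replicate 3 columns. Its CPM was 2.56 and 3.21 in Fgf9_null and 2.59 and 3.26 in Fgf9_het, or 3.61 ± 0.560 TPM.

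Each of the 8 Smad genes exceeded 10 CPM in both libraries. Smad4, the shared partner of both branches (chromosome 18, 73639009 to 73703780, minus strand), had 101 and 107 CPM in Fgf9_null and 103 and 108 CPM in Fgf9_het, or 65.0 ± 2.05 TPM. It led the Smads, except with the median transcript as length, where Smad3 did. In the BMP branch, Smad5 had 46.2 ± 0.236 TPM and Smad1 31.1 ± 1.60 TPM. Smad5 held 56.2% and 54.4% of the summed TPM of the 3 BMP Smads in libraries 2 and 3. Smad9 was the lowest Smad (chromosome 3, 54755582 to 54801257, plus strand), at 14.8 and 16.9 CPM in Fgf9_null and 15.0 and 17.1 CPM in Fgf9_het, or 6.25 ± 0.558 TPM. In the TGF-beta and activin branch, Smad3 had 34.7 ± 1.23 TPM and Smad2 20.1 ± 0.388 TPM, a ratio of 1.79 in library 2 and 1.66 in library 3. The inhibitory Smad genes Smad6 and Smad7, themselves targets of the pathway, stood at 23.5 ± 1.62 and 19.0 ± 1.10 TPM. With the median transcript as length Smad7 was above Smad6.

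By TPM with the longest transcript or the union of exons as length, the target genes held both the highest and the lowest levels of all members. With the median transcript as length, Smad3 (201 TPM) and Bmpr1a (153 TPM) stood above Id1 (91.0 TPM). Id genes encode helix-loop-helix proteins that lack a DNA-binding region and block other such factors. Id1 (ENSMUSG00000042745, chromosome 2, 152736251 to 152737410, plus strand) had 59.3 and 71.7 CPM in Fgf9_null and 60.2 and 72.7 CPM in Fgf9_het, or 120 ± 15.4 TPM. Id3 followed at 92.6 ± 10.4 TPM, Id2 at 40.0 ± 3.22 TPM and Id4 at 18.1 ± 2.15 TPM, an order that held in each library. The 4 Id genes summed to 251 TPM in library 2 and 289 TPM in library 3. The homeobox genes Msx1 and Msx2, BMP targets in limb and skull, were low. Msx1 (chromosome 5, 37820485 to 37824583, minus strand) had 29 counts in both replicate 2 columns and 21 in both replicate 3 columns, and Msx2 (chromosome 13, 53466884 to 53473074, minus strand) had 13.4 and 17.5 estimated counts in libraries 2 and 3. At 1.32 ± 0.440 and 0.628 ± 0.0480 TPM, they lay far below the Id genes, with Id1 at 66.7 and 129 times the level of Msx1 in libraries 2 and 3.

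The spread between the 2 libraries was small for most members. The libraries are 1 sample each, so what follows is a description without a test, and the intervals cover counting error only (exact Clopper-Pearson, 95%). Of 40 members with a mean of at least 1 CPM, 3 were over 1.2-fold higher in library 3 and 2 were over 1.2-fold higher in library 2. Over all 17153 genes at that level, 7.85% were past 1.2-fold toward library 3 and 13.7% toward library 2, so the member counts (7.50% and 5%) lay near or below the background. The median ratio of library 3 over library 2 was 1.01 for the members and 0.988 for all genes. Toward library 3, 21 members were higher by any amount (52.5%), against 45.6% of all genes. The counting interval lay wholly above 1 for 6 of 40 members (15.0%), against 10.3% of all genes, and wholly below 1 for 3 (7.50%), against 12.9%.

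**Figure D3:**
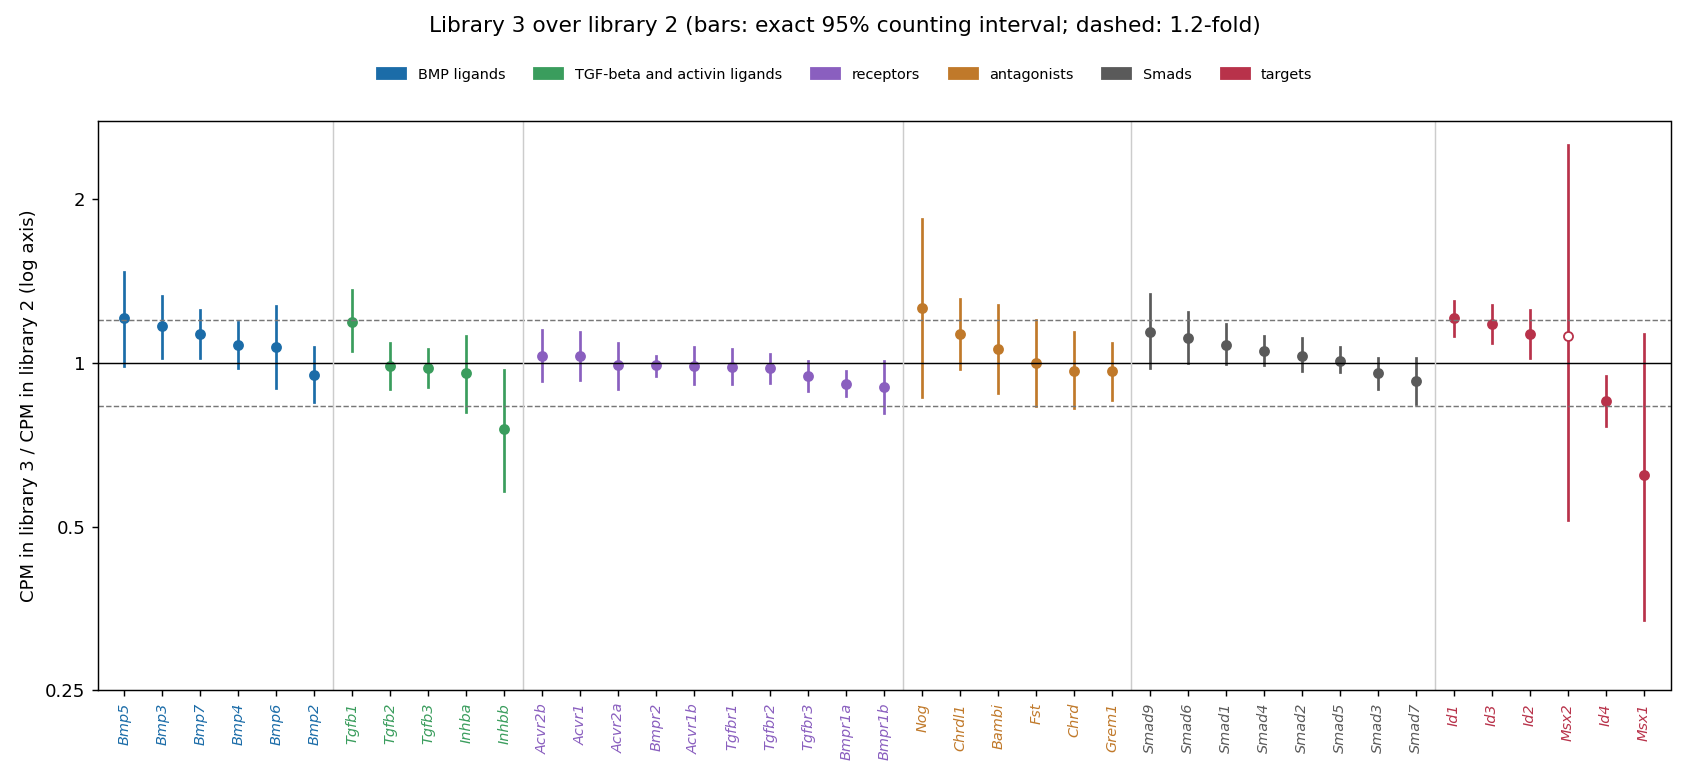
CPM in library 3 over CPM in library 2 for each member (log axis), by role; bars are exact 95% counting intervals, dashed lines mark 1.2-fold, and the open symbol is Msx2, which had a mean under 1 CPM. The receptors lie between 0.904 and 1.03, while the targets span 0.623 (Msx1) to 1.21 (Id1).

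The members past 1.2-fold differed in how well counts bounded them. Id1 was 1.21 times as high in library 3 as in library 2 (interval 1.12 to 1.30), from 1160 and 1630 counts in libraries 2 and 3. Bmp5 was also 1.21 times as high in library 3, with an interval of 0.989 to 1.47, and Nog was 1.26 times as high with an interval of 0.864 to 1.84. Inhbb was 1.33 times as high in library 2 (interval 1.03 to 1.72). Msx1 was 1.61 times as high in library 2 (interval 0.885 to 2.96), which these few counts do not separate from equality. Past 1.5-fold, no member was higher in library 3 (1.82% of all genes were), and Msx1 was the 1 member higher in library 2 (3.38% of all genes were). Just inside 1.2-fold were Tgfb1 at a ratio of 1.19 and Id3 at 1.18 toward library 3, and Id4 at 1.18 toward library 2. With TMM scaling Tgfb1 also passed 1.2-fold toward library 3, making 4 of 40 members, against 8.81% of all genes. With structured RNAs left out of the totals Bmp5 did not pass it, leaving 2 members, against 8.17% of all genes.

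By role, most BMP ligands were somewhat higher in library 3 and receptors did not differ much. Of the 6 BMP ligands, 5 were higher in library 3 (83.3%, against 45.6% of all genes), with a median ratio of 1.11. Bmp2 was the exception at 0.952 (interval 0.848 to 1.07). Bmp3 and Bmp7 had intervals above 1, at 1.17 (1.02 to 1.33) and 1.13 (1.02 to 1.25). The intervals of Bmp4 (0.979 to 1.19), Bmp5 (0.989 to 1.47) and Bmp6 (0.900 to 1.27) included 1. Of the 10 receptors, 8 were lower in library 3 by up to 1.11-fold, with a median ratio of 0.985, close to that of all genes. Bmpr1a had the one receptor interval clear of 1, with a ratio of 0.916 (0.871 to 0.965). Of the 8 Smads, 6 were higher in library 3 (75.0%, against 45.6% of all genes). Their median ratio was 1.04, and all 8 intervals included 1.

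The Id genes did not move as one between the libraries. Id1, Id2 and Id3 were higher in library 3, at ratios of 1.21, 1.13 (interval 1.02 to 1.25) and 1.18 (1.09 to 1.28). Id4 had 35.5 and 36.1 CPM in the replicate 2 columns and 30.2 and 30.6 CPM in the replicate 3 columns, a ratio of 0.851 (0.765 to 0.947). Some lists of cell type markers were nearly level between libraries 2 and 3. Smooth muscle markers summed to 4750 and 4887 CPM, fibroblast markers to 5753 and 5628, and mesothelium markers to 101 and 100. Immune markers summed to 55.9 and 58.0 CPM, and enteric neuron and glia markers to 140 and 146. Gastric epithelium markers summed to 6834 and 6447 CPM, with 3 of 10 higher in library 3. Other lists differed more. All 5 endothelial markers were higher in library 3, none was at 0, and their sum was 290 CPM in library 2 and 333 CPM in library 3. All 6 squamous forestomach markers were lower in library 3, 4 of 5 stomach mesenchyme markers were higher there (226 and 248 CPM summed in libraries 2 and 3), and all 5 liver and all 5 erythroid markers were higher there. The part of these shifts in the Id, ligand and Inhbb ratios was not tested.

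Other genes of the pathway, 74 from a list of ligands, receptors, modulators and targets outside the 41, covered a wider range. Between the labels, edgeR called 0 of the 60 that it tested, with a largest absolute log2 fold of 0.0154. Of the 74, 54 (73.0%) stood at 1 CPM or more in each library, against 32.7% of all genes. Of the 22 further ligands, 8 did so (36.4%), near the share of all genes, and all 11 ligands among the members did. The highest further ligand was Inha, the inhibin alpha subunit gene, at 22.2 ± 1.70 TPM, followed by Gdf11 at 12.1 ± 0.419 TPM. Inha stood above both activin beta subunit genes with the longest transcript as length. Before length scaling Inha and Inhba were close, at 15.6 ± 1.27 and 14.6 ± 0.457 CPM, with longest transcripts of 1475 and 6390 bases. Bmp15, an oocyte ligand, and Tdgf1, the Nodal co-receptor Cripto, had no counts in any column. A count of 0 allows up to 0.156 CPM at the depth of the shallowest column (3 counts).

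Some co-receptor and latency genes had high levels and others low ones, such as the co-receptor gene Hjv at 0.230 ± 0.130 TPM. The latency gene Ltbp2 had 3.71 ± 1.09 TPM. The BMP co-receptor genes Rgmb and Rgma stood at 81.4 ± 2.82 and 45.5 ± 0.117 TPM, and Rgmb exceeded every receptor among the members with the longest transcript as length. Eng encodes the endothelial co-receptor endoglin and was 1.27 times as high in library 3 (interval 1.18 to 1.37). Acvrl1, which encodes the endothelial type I receptor ALK1, was 1.22 times as high there (1.12 to 1.34). They were 2 of the 5 further receptor and co-receptor genes with a mean of at least 1 CPM. Of those 5, 40.0% were past 1.2-fold toward library 3, against 7.85% of all genes. Eng and Acvrl1 were named after their values were seen, and over the 56 further genes at that level the share was 10.7%. Acvr1c was past it toward library 2, at a ratio of 0.784 (0.563 to 1.09). Among latency genes, Ltbp2 had a ratio of 0.659 (0.549 to 0.791). A link of Eng and Acvrl1 to the endothelial markers given above was not tested. Ltbp4, whose protein holds latent TGF-beta in the matrix, was the highest pathway gene by the longest transcript at 424 ± 1.39 TPM. Thbs1, which encodes thrombospondin, an activator of latent TGF-beta, had 141 ± 14.5 TPM. Among modulators, Fstl1, a follistatin relative, stood at 246 ± 7.39 TPM, 29.2 and 28.1 times the level of Fst in libraries 2 and 3, and 15.0 times with the median transcript as length. Bmp1, which encodes a protease that cleaves chordin and not a ligand, had 99.8 ± 1.55 TPM.

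**Figure D4:**
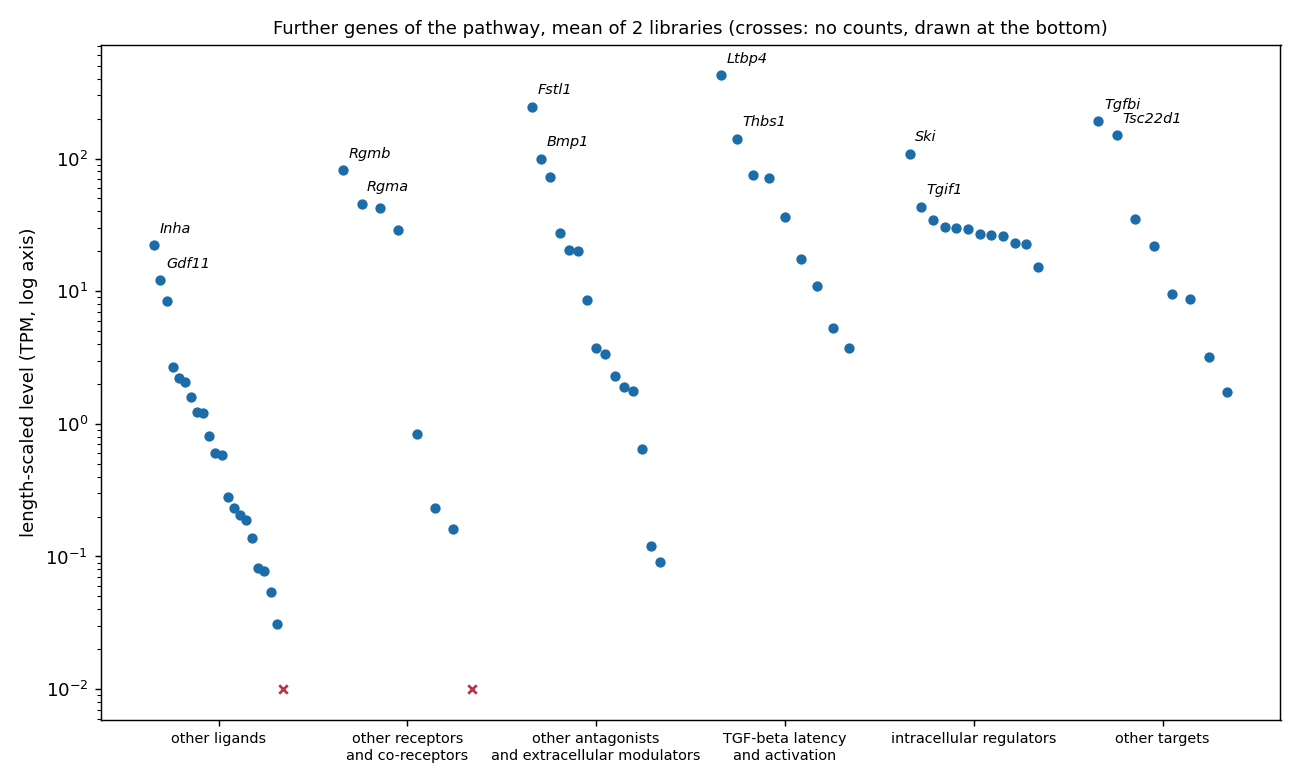
Length-scaled level (TPM, log axis, mean of 2 libraries) of the 74 further pathway genes, 1 point a gene, ordered by level within each role; the 2 highest of each role are named, and crosses mark the 2 genes with no counts. Ltbp4 at 424 TPM is the highest, and most of the 22 further ligands lie under 3 TPM.

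Intracellular regulators and further targets completed the list. All 12 regulators exceeded 10 CPM, led by Ski, a repressor of Smad complexes, at 109 ± 1.25 TPM, and Tgif1, a homeobox repressor in the TGF-beta pathway, at 43.1 ± 0.623 TPM. No regulator was past 1.2-fold between the libraries, with ratios from 0.888 to 1.05. Among targets, Tgfbi and Tsc22d1 had 191 ± 16.4 and 150 ± 4.29 TPM. Of the 56 further genes with a mean of at least 1 CPM, 6 were over 1.2-fold higher in library 3 (10.7%) and 7 in library 2 (12.5%), again near the 7.85% and 13.7% of all genes.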

How the data were processed

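Total RNA was depleted of ribosomal RNA with RNase H, copied from random hexamers and read from both ends, per the labels' protocols. Listed in the processing notes of the submitters are, without role or order, Salmon 1.8.0, Trimmomatic 0.33, FastQC 0.10, edgeR and the builds mm10 and GRCm38. Which transcript annotation was used was not given in these sources. The authors deposited an estimated count for each Ensembl gene, unscaled. Samples were matched to columns by title, and replicate numbers 2 and 3 come from the titles; 2 further columns of values carry no name and were not used. Of 51098 rows, 50870 were found in GENCODE M21, which gave coordinates and lengths.

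CPM used the column total, and same-numbered columns were averaged. Their deviations from the group means correlated at 0.999 across 19412 genes, so the replicate numbers pair columns of 1 library. For TPM, each count was divided by the length of the longest protein-coding transcript. Counts were rounded and tested with edgeR 4.0.16 (TMM, filterByExpr, quasi-likelihood F test with its default Poisson bound, Benjamini-Hochberg) in R 4.3.3; DESeq2 1.42.0 and limma 3.58.1 were alternatives. Each SE is the absolute log2 fold divided by the square root of the F statistic. The Poisson bound acts on the p-value and not on this SE. With no source naming separate animals, p-values reflect only the spread of these columns, which may be technical. Members and lists were chosen with earlier results of these data known. By rule, column values are given for the highest and lowest member of each role and for members past 1.2-fold between the libraries. Of the further genes, the 2 highest of each role and those at 0 were named. Eng, Acvrl1, Acvr1c, Hjv, Ltbp2, Id4 and further ratios were added after their values were seen. Intervals, and the floor of 3 counts, reflect counting error alone.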

Additional observations from a re-analysis of the deposited data

How the results depend on the processing

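The number of genes called between the labels was 0 with RLE factors, without a filter on low counts and with limma-voom, 3 with DESeq2 and 6 with the replicate block, and leaving out 1 column gave 1 to 2; no member was called under any of these. Leaving out a column leaves 1 sample in its group, which is assumed to vary like the other group, and leaves the libraries unequal between the labels: the largest absolute member log2 fold rose from 0.00953 to between 0.304 and 0.356, so these fits say nothing about stability. An alternative chosen after seeing the data, the replicate block without the Poisson bound, called 1232 genes and 2 members, while leaving out the bound alone called 0. Between the libraries, the members past 1.2-fold toward library 2 went from 2 to 1 of 38 at a minimum of 5 CPM. Msx1 was no longer tested there, and 7.78% of all genes were past 1.2-fold toward library 2. Toward library 3 there were 2 members at that minimum, against 4.31% of all genes. At 1.5-fold, 0 members were past that fold toward library 3 (1.82% of all genes were) and 1, Msx1, toward library 2 (3.38%). The median log2 ratio of the members was 0.011, and 0.031 with TMM, which moved the median of all genes from -0.018 to 0.002. The log2 ratios of members stayed within their counting intervals under every scaling and single-label alternative. Mean CPM was up to 1.21 times as high without structured and ribosomal RNA genes. Single-label columns moved 2 of 41 levels by more than 1 SD in each case. Other gene lengths moved TPM by factors of 0.516 to 5.79, with 36 levels (union of exons) and 39 (median transcript) beyond 1 SD, so TPM orders between genes depend on length. With the median transcript, 5 members moved by over 1.5 times (Smad3, Smad2, Bmpr1a, Smad7 and Tgfbr1), and with the union of exons 2 did (Tgfb1 and Chrd). Depth limits Msx1, Msx2 and Nog, and 2 libraries limit every comparison.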
